A study of Homo sapiens with 11 samples.

Results

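The 35 genes of homologous recombination and the DNA damage response described here were followed in T-REx-293 cells depleted of Tat-SF1. They were chosen by name, and a probe set counted for a gene if it carried exactly 1 gene symbol and that symbol, or an older synonym, was on the list. RAD51D was found under RAD51L3 and MRE11 under MRE11A. The array held 1042 such probe sets, of which 967 passed the filter on missing and dim values, and all 35 genes were measured, out of 14520 measured genes.

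T-REx-293 cells descend from HEK293, a line of human embryonic kidney cells, and carry the Tet repressor, so that tetracycline switches on a regulated promoter. Tat-SF1, encoded by HTATSF1, binds the U2 snRNP and was first described as a cofactor of transcription elongation by the HIV-1 Tat protein. All groups carried a stable GFP plasmid and were induced with 2.5 µg/mL tetracycline for 72 h. The control group held 2 arrays of cells with an empty vector and 3 arrays of cells with an shRNA against GFP, so that the GFP shRNA controls, unlike the others, had a target for RNA interference in the cell. The knockdown group held 3 arrays for each of 2 shRNAs to Tat-SF1, here shRNA A and shRNA B. The labels call the samples biological replicates of 1 cell line and do not say whether each line was 1 clone. If they were cultures of 1 line, p-values measure the spread between those cultures. The third empty vector sample failed quality control, according to the series design, and was not analysed here. RNA was measured on Affymetrix exon arrays, and a gene value is the median, per array, of that gene's probe sets on the log2 scale.

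Homologous recombination copies the sister chromatid to mend a double-strand break. The MRN complex (MRE11, RAD50 and NBN) with CtIP, the product of RBBP8, starts resection of the broken ends, and EXO1 extends it. RPA coats the single strand, and BRCA1 with BARD1, PALB2 and BRCA2 prepares it for the search for the intact copy. ATM and ATR with its partner ATRIP signal the damage to CHEK2 and CHEK1. The Fanconi anaemia proteins direct the same machinery to crosslinks between DNA strands. Most of these genes are transcribed more strongly in dividing cells around S phase, and E2F factors are among their known regulators.

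The promoters are shown first for the 5 genes whose promoters held an E2F word, since E2F sites are the best-known shared element of this pathway. Promoter sequences from RefSeq (GRCh38.p14, 250 bases before to 50 after each start) matched 31 of the 35 genes and not NBN, RPA2, RPA3 or FANCI. An E2F word (TTTCGCGC, TTTGGCGC or TTTCCCGC, on either strand) lay in the promoters of 5 of 31 genes (16.1%), against 3.3% of 27305 genes with a promoter in the table. Those 27305 genes were not limited to the measured ones. A gene counted if any of its starts held a word, and 11 of the 31 genes had several starts. The word is in capitals in each window, which reads along the gene's own strand.
XRCC2, chr7:152676103-152676130, minus strand: ggcgttggtgGCGGGAAAgttgagtctc
TOPBP1, chr3:133661931-133661958, minus strand: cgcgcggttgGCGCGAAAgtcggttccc
EXO1, chr1:241848198-241848225, plus strand: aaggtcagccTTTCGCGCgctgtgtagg
FANCD2, chr3:10026425-10026452, plus strand: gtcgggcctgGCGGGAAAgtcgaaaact
CLSPN, chr1:35769966-35769993, minus strand: ctctggctggGCGGGAAAgcaagaacag
Read in this direction, the words of all 5 genes began between 7 bases before and 22 bases after the start. A CCAAT box (CCAAT, either strand) was found in 19 of 31 promoters (61.3%), against 39.7% of all genes, and a CHR word (TTTGAA or TTCGAA, either strand) in 3 of 31 (9.68%), against 19.5%. A match of letters is a description of the sequence and not of binding.

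The targeted gene was checked before the pathway. HTATSF1 had gene values of 8.54 and 8.32 with the empty vector, 8.53, 8.63 and 8.49 with the GFP shRNA, 8.29, 8.21 and 8.22 with shRNA A, and 8.11, 8.19 and 8.21 with shRNA B. All 6 knockdown arrays lay below all 5 controls, although empty vector replicate 2 was only just above the highest knockdown array. The difference was -0.30 ± 0.0515 (standard error) on the log2 scale, and the adjusted p from limma was 0.0483. The exact two-sided permutation p was 0.00216, the smallest that the 462 splits of the arrays can give. Each of the 14 probe sets of HTATSF1 had a lower mean in the knockdown. The limma call was lost when any single array except empty vector replicate 2 was left out, with differences from -0.34 to -0.26 over all 11 omissions, and it was also lost with the suffix of the array names as a block (-0.25, adjusted p = 0.358).

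The arrays differed in ways that touch every result below. Array medians were 7.902 to 7.905, but the mean of the 3000 brightest genes was lower in the knockdown (9.258 ± 0.0448, SD, n = 6) than in the control (9.325 ± 0.0411, SD, n = 5; exact two-sided permutation p = 0.0303). GFP shRNA replicate 1 was the brightest array and shRNA B replicate 1 the dimmest, and they lay at opposite ends of the first principal component of all genes. The names of shRNA A replicate 3 and of all shRNA B arrays carry a suffix that no control array has, so that only shRNA A holds arrays with and without it and can separate it from the knockdown. The 7 listed markers of HEK293 cells averaged 8.84 to 9.08 over the control arrays and 8.81 to 8.93 over the knockdown arrays. They were uneven, with control means of 7.97 for NEFM and 8.18 for PAX2, up to 10.18 for VIM. Fibroblast, endothelial, hepatocyte and blood markers, 20 of 30 measured, averaged 7.91 to 7.98 by list on every array, although COL1A1 had a control mean of 8.12. These averages were close to the table's median of 7.91, around which dim probe sets crowd. Differences of genes close to that level may be compressed on this scale, and fewer cells with a transcript cannot be told apart from less transcript per cell.

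No gene of the 35 changed between knockdown and control at an adjusted p under 0.05, where 33 of 14520 genes (0.227%) did. The differences were small, from -0.15 to 0.05 on the log2 scale, with a median of -0.049 against -0.017 over all genes. A lower mean in the knockdown was found for 29 of the 35 genes (82.9%), and for 67.2% of all genes. The smallest adjusted p was that of BARD1, at 0.148. An unadjusted p under 0.05 was reached by 6 genes (17.1%), namely BARD1, FANCA, RNF8, RPA2, RPA3 and RAD54L, all with lower means. Of all genes 15.2% reached it, 12.8% with a lower mean, and without GFP shRNA replicate 3 it was 3 of the 35 and 13.1% of all genes. Groups that did not overlap were found for BARD1, XRCC3 and RPA2 (3 of 35, 8.57%), all lower in the knockdown, against 2.23% of all genes in either direction and 2.02% lower.

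**Figure D1:**
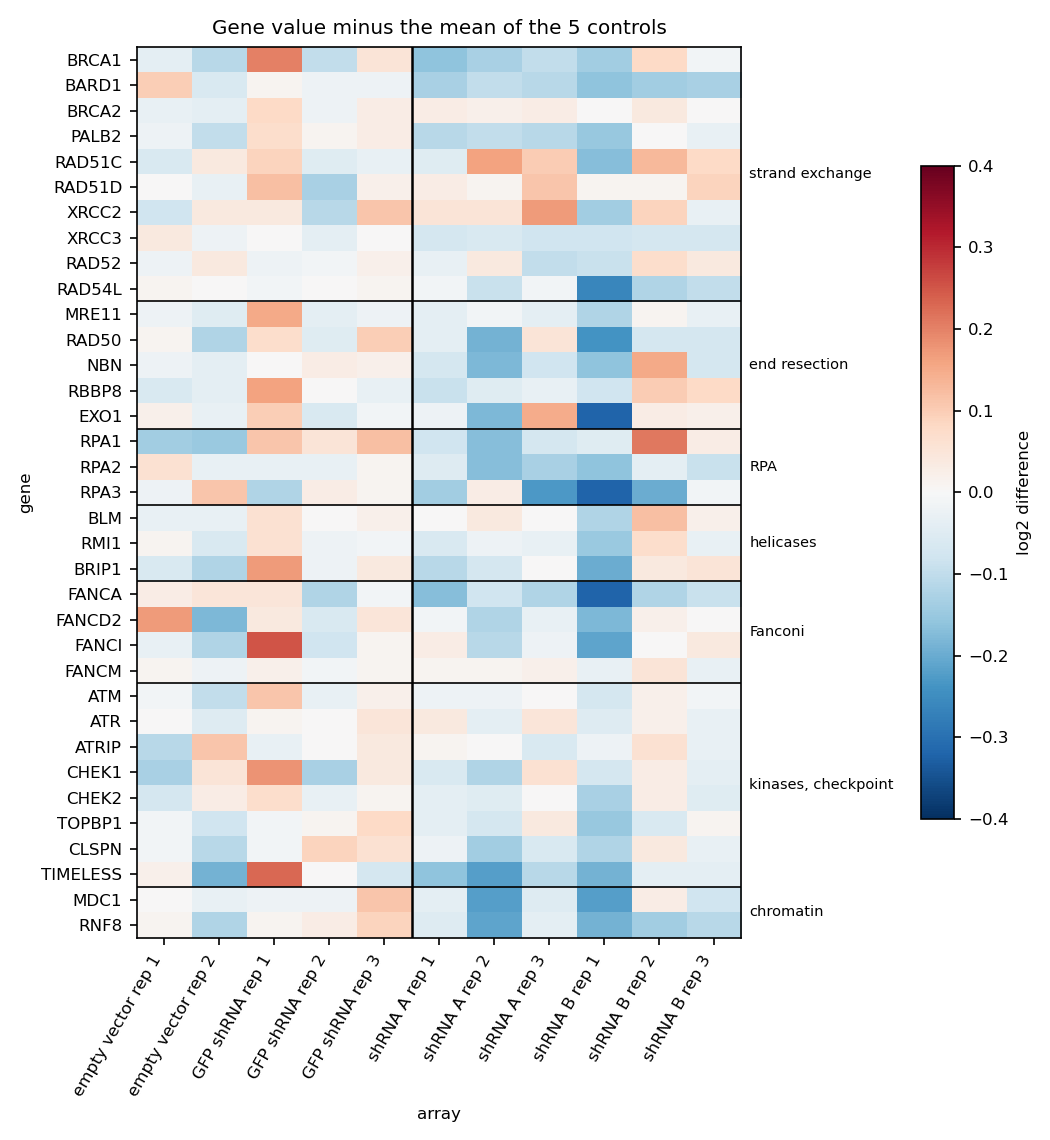
Gene value of each of the 35 genes on each of the 11 arrays minus the mean of the 5 controls (colour, log2 difference; rows are genes by role, columns are arrays, and the vertical line divides control from knockdown). The column of shRNA B replicate 1 is the bluest, with the lowest value of 18 genes, and that of GFP shRNA replicate 1 holds the highest value of 13 genes.

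The pattern across arrays was uneven. shRNA B replicate 1 held the lowest value of all 11 arrays for 18 of the 35 genes, and shRNA A replicate 2 for 6 more. GFP shRNA replicate 1 held the highest value for 13 genes, followed by shRNA B replicate 2 with 6. The median of the 35 genes relative to the control mean was -0.143 on shRNA B replicate 1 and 0.021 on shRNA B replicate 2, while all genes stood at -0.049 and -0.005. Without GFP shRNA replicate 1 and shRNA B replicate 1, an omission chosen after seeing the data, the median difference of the 35 genes was -0.006 against -0.005 for all genes. A lower mean was then found for 19 of 35, against 56.6% of all genes. Leaving out either array alone moved the median to -0.024 (GFP shRNA replicate 1) or -0.023 (shRNA B replicate 1). The part of array brightness in the lower means was not tested.

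Among the genes of strand exchange, BARD1, the RING partner of BRCA1, had the clearest separation. Its values were 8.69 and 8.53 with the empty vector, 8.60, 8.57 and 8.57 with the GFP shRNA, 8.46, 8.49 and 8.48 with shRNA A, and 8.43, 8.45 and 8.46 with shRNA B. Every knockdown array lay below every control, and the knockdown arrays were closer together (8.46 ± 0.0200, SD, n = 6) than the controls (8.59 ± 0.0602, SD, n = 5). The difference of -0.13 ± 0.0404 (standard error) had an adjusted p of 0.148 and so did not pass. Of the 15 probe sets of BARD1, 13 had a lower mean in the knockdown, as did 66.5% of the 967 probe sets and 61.6% of all probe sets.

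XRCC3, which pairs with RAD51C, had the tightest values of the 3 non-overlapping genes. They were 8.48 and 8.42 with the empty vector, 8.44, 8.40 and 8.44 with the GFP shRNA, 8.37, 8.38 and 8.36 with shRNA A, and 8.36, 8.37 and 8.37 with shRNA B. The groups were separated by a narrow gap, between 8.38 and 8.40, and the difference was -0.07 ± 0.0349 (standard error; adjusted p = 0.379). Of the 14 XRCC3 probe sets, 10 had a lower mean. With the mean of the probe sets in place of their median the XRCC3 difference was -0.03. The groups of neither XRCC3 nor BARD1 nor RPA2 then stayed apart, while those of 3.13% of all genes did not overlap. BARD1 and XRCC3 are shown with the 120 bases before their start, since they are the non-overlapping genes with a promoter in the table. CCAAT boxes are in capitals, written as CCAAT or, on the opposite strand, ATTGG.
XRCC3, chr14:103715452-103715571, minus strand: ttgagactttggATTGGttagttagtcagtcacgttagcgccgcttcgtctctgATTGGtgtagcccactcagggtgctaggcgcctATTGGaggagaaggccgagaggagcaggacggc
BARD1, chr2:214809684-214809803, minus strand: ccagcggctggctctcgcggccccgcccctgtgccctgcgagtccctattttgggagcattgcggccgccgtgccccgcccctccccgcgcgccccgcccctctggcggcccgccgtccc
XRCC3 had 3 such boxes in this window and BARD1 had 0.

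**Figure D2:**
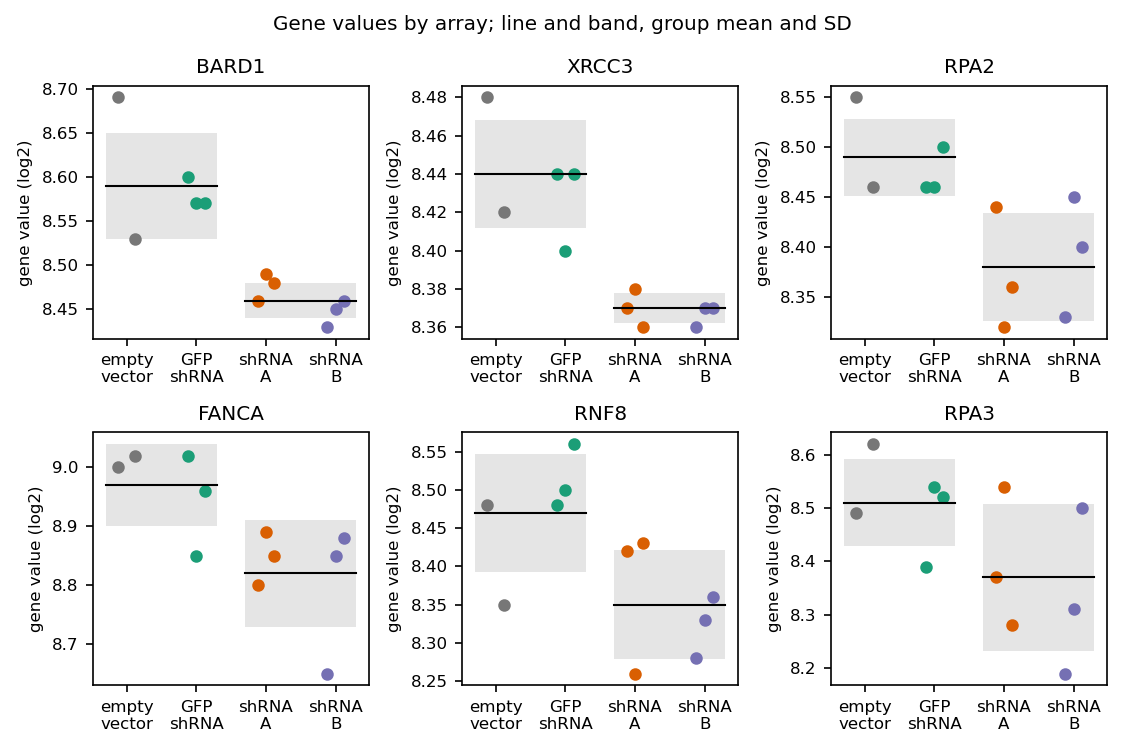
Gene values (log2) of 6 genes on each array by construct: BARD1, XRCC3 and RPA2, whose control and knockdown arrays do not overlap, and FANCA, RNF8 and RPA3, which are among the most negative differences. Points are arrays, the line is the mean and the band the SD of the 5 control and of the 6 knockdown arrays, and each panel has its own axis, which does not start at 0.

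The other 8 genes of this step went both ways. BRCA1, which forms a ubiquitin ligase with BARD1, averaged 8.54 ± 0.128 (SD, n = 5) in the control and 8.46 ± 0.0950 (SD, n = 6) in the knockdown. Its control values ran from 8.43 to 8.74 and its knockdown values from 8.38 to 8.62, so the groups overlapped widely (adjusted p = 0.587). Although the gene value of BRCA1 was lower in the mean, 20 of its 35 probe sets had a higher mean in the knockdown. PALB2, which joins BRCA1 to BRCA2, had control values of 8.30 to 8.47 and knockdown values of 8.25 to 8.40, and differed by -0.08 (adjusted p = 0.394).

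RAD54L, a motor protein that moves along DNA, had nearly constant control values, from 8.49 to 8.51 over the 5 arrays. With shRNA A they were 8.49, 8.41 and 8.49, and with shRNA B 8.24, 8.38 and 8.40. The shRNA B arrays lay below all others, while shRNA A replicate 1 reached the lowest control and shRNA A replicate 3 lay just below it. RAD54L differed by -0.10 ± 0.0464 (standard error; adjusted p = 0.322) in the pooled comparison, and by -0.07 without shRNA B replicate 1.

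No positive difference in the pathway exceeded 0.05, whereas the negative ones reached -0.15. RAD51D differed by 0.05, its partners RAD51C and XRCC2 by 0.04 and 0.03, and BRCA2, which binds PALB2, by 0.02. Their adjusted p-values lay between 0.648 and 0.835. RAD51C had control values of 8.48 to 8.63 and knockdown values from 8.37 on shRNA B replicate 1 to 8.70 on shRNA A replicate 2. The sign of RAD51C and XRCC2 turned with a higher floor on dim probe sets, the table median plus 0.5 (-0.08 and -0.10), and that of BRCA2 with the GFP shRNA arrays alone as the control (-0.01). RAD52, an annealing protein, differed by -0.02.

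The 5 genes of end resection all had lower means, between -0.10 and -0.02, and none reached an unadjusted p under 0.05. RAD50, the coiled-coil ATPase of the MRN complex, had values of 9.03, 8.90, 9.09, 8.97 and 9.12 in the controls, 8.98, 8.83 and 9.07 with shRNA A and 8.78, 8.95 and 8.95 with shRNA B. The groups overlapped, with the lowest RAD50 values on shRNA B replicate 1 and shRNA A replicate 2 (-0.10 ± 0.0605, standard error; adjusted p = 0.482). NBN, the subunit that recruits ATM, differed by -0.06 and the nuclease MRE11 by -0.04. In NBN 5 of the 6 knockdown arrays (8.18 to 8.29) lay below all controls (8.32 to 8.39), and shRNA B replicate 2, at 8.51, lay above them all. The difference of NBN was -0.11 without that array. EXO1 differed by -0.06 and RBBP8 by -0.02, and both turned to higher means (0.02 and 0.04) when the brightest and the dimmest array were left out together.

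RPA, the heterotrimer that coats single-stranded DNA, was uneven across its subunits. RPA2, the middle subunit, had values of 8.55 and 8.46 with the empty vector, 8.46, 8.46 and 8.50 with the GFP shRNA, 8.44, 8.32 and 8.36 with shRNA A, and 8.33, 8.45 and 8.40 with shRNA B. All RPA2 knockdown arrays were below all controls, but the gap lay between 8.45 and 8.46 (-0.10 ± 0.0405, standard error; adjusted p = 0.235). Of the 14 RPA2 probe sets, 9 had a lower mean, and the median of their differences was -0.03. RPA3, the smallest subunit, averaged 8.51 ± 0.0816 (SD, n = 5) in the control and 8.37 ± 0.137 (SD, n = 6) in the knockdown. Its knockdown arrays ran from 8.19 to 8.54 and its controls from 8.39 to 8.62, so the groups overlapped (-0.15, adjusted p = 0.272). Only 6 of the 11 probe sets of RPA3 had a lower mean, and with no filter on dim probe sets the difference was 0.03. RPA1, the largest subunit, differed by -0.02 in the pooled comparison, and its highest value, 10.00, was on shRNA B replicate 2.

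The 3 helicase and dissolution genes, BLM, its partner RMI1 and the BRCA1-associated helicase BRIP1, differed by 0.01, -0.03 and -0.05. None reached an unadjusted p under 0.05. BLM ran from 8.37 to 8.46 in the controls and from 8.28 to 8.52 in the knockdown, so that the knockdown arrays surrounded the controls, with shRNA B replicates 1 and 2 at the ends. BRIP1 ran from 8.55 to 8.84 in the controls and from 8.47 to 8.72 in the knockdown. Among the Fanconi anaemia genes, FANCA, a core complex subunit, had values of 9.00 and 9.02 with the empty vector, 9.02, 8.85 and 8.96 with the GFP shRNA, 8.80, 8.89 and 8.85 with shRNA A, and 8.65, 8.85 and 8.88 with shRNA B. GFP shRNA replicate 2 sat among the knockdown arrays, and the other 4 controls lay above all of them. The difference of FANCA was -0.15 ± 0.0549 (standard error; adjusted p = 0.208), and -0.11 without shRNA B replicate 1. Of 55 FANCA probe sets, 52 had a lower mean in the knockdown. FANCD2 and FANCI, which the core complex ubiquitinates, both differed by -0.05, and the translocase FANCM by 0.00. The FANCI controls ran from 9.26 to 9.63 and its knockdown arrays from 9.17 to 9.42, and those of FANCD2 from 8.55 to 8.90 and from 8.55 to 8.75. In both genes the controls covered most of the knockdown range.

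The 8 kinase and checkpoint genes all had lower means, from -0.12 to -0.00, and none reached an unadjusted p under 0.05. TIMELESS, which protects replication forks and supports CHEK1 activation, had values of 9.05, 8.84, 9.26, 9.03 and 8.96 in the controls and 8.81 to 8.99 in the knockdown. The highest value was that of GFP shRNA replicate 1, and empty vector replicate 2 and GFP shRNA replicate 3 lay within the range of the knockdown (-0.12 ± 0.0667, standard error; adjusted p = 0.401). For TIMELESS, 36 of 38 probe sets had a lower mean. CLSPN, the adaptor between ATR and CHEK1, differed by -0.06, and TOPBP1, the activator of ATR, by -0.04. CHEK1 and CHEK2 differed by -0.04 each, ATM by -0.02, ATRIP by -0.01 and ATR by -0.00. The CHEK1 controls spread from 8.56 to 8.87, wider than the knockdown arrays, from 8.57 to 8.75. ATR had the same range, 8.09 to 8.19, in both groups. Both genes of chromatin signalling were lower in the mean. RNF8, the ubiquitin ligase that marks chromatin at breaks, had control values of 8.48, 8.35, 8.48, 8.50 and 8.56 and knockdown values of 8.42, 8.26, 8.43, 8.28, 8.33 and 8.36. Apart from empty vector replicate 2, the RNF8 controls lay above all knockdown arrays (-0.12 ± 0.0476, standard error; adjusted p = 0.227). In RNF8 20 of 22 probe sets had a lower mean. MDC1, which binds phosphorylated H2AX, differed by -0.10 (adjusted p = 0.424), with controls of 9.12 to 9.26 and knockdown arrays of 8.93 to 9.18.

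Each shRNA was next compared with the 5 controls, which both comparisons share. With shRNA A none of the 35 genes passed (0.00689% of all genes did), 28 of 35 had a lower mean (65.9% of all genes), and the differences had a median of -0.046 and a range of -0.16 to 0.09. Only 2 of 35 genes (5.71%) had an unadjusted p under 0.05 with shRNA A, against 10.8% of all genes, and the count was 0 without empty vector replicate 1 or shRNA A replicate 3 (9.19% and 8.48% of all genes) and 6 without empty vector replicate 2 (13.1%). With shRNA B none passed (0.0620% of all genes did), 27 of 35 had a lower mean (66.1% of all genes), and the median was -0.042 with a range of -0.18 to 0.07. The threshold of an unadjusted p under 0.05 was met by 5 genes (14.3%) with shRNA B, against 13.3% of all genes, and by 2 without shRNA B replicate 1 (8.99%). Lower means with shRNA B numbered 17 without shRNA B replicate 1 (57.2% of all genes; median of the 35 genes 0.004) and 34 without shRNA B replicate 2 (71.7%; median -0.081). The median was 0.020 with shRNA B, and 12 of 35 genes had a lower mean, when both the brightest and the dimmest array were left out. Over all genes the median was then -0.002, and 51.9% had a lower mean. A lower mean with both shRNAs was found for 24 of 35 genes (68.6%), against 52.2% of all genes, and a higher mean with both for 4 (11.4%), against 20.2%.

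**Figure D3:**
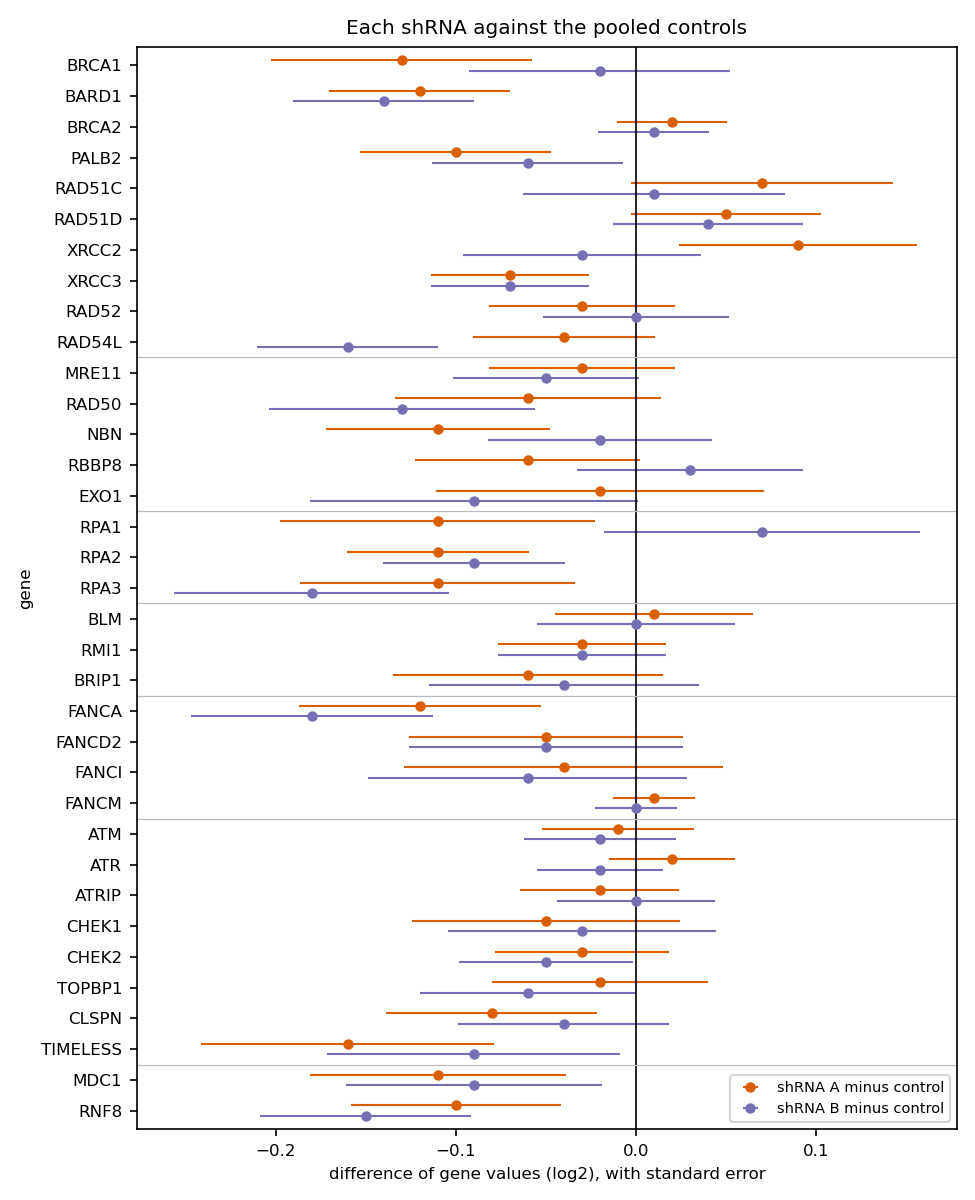
Difference of gene values (log2) of each of the 35 genes with shRNA A (orange) and with shRNA B (violet) from the 5 pooled controls, with the standard error of the limma fit as a bar. BARD1 and XRCC3 lie at nearly the same place for both shRNAs, whereas RPA1 lies at -0.11 with shRNA A and 0.07 with shRNA B.

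BARD1 differed by -0.12 with shRNA A and -0.14 with shRNA B, XRCC3 by -0.07 with each, and RPA2 by -0.11 and -0.09. The most negative differences with shRNA A were those of TIMELESS (-0.16), BRCA1 (-0.13), FANCA (-0.12) and BARD1, and with shRNA B those of RPA3 (-0.18), FANCA (-0.18), RAD54L (-0.16) and RNF8 (-0.15). Higher means with shRNA A were led by XRCC2 (0.09), RAD51C (0.07), RAD51D (0.05) and BRCA2 (0.02), and those with shRNA B by RPA1 (0.07), RAD51D (0.04), RBBP8 (0.03) and RAD51C (0.01). Adjusted p-values of these genes were 0.417 or more with shRNA A and 0.205 or more with shRNA B.

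The test of the difference between the shRNAs found no gene of the 35 and none of all 14520 genes (0%) at an adjusted p under 0.05. At an unadjusted p under 0.05 it found 1 of the 35 (2.86%) and 641 of all genes (4.41%). That gene was RAD54L, lower with shRNA B by -0.13 ± 0.0563 (standard error; adjusted p = 0.999). The widest gap the other way was that of RPA1, at 0.17 ± 0.0979 (standard error), with 9.71, 9.62 and 9.72 on the shRNA A arrays and 9.74, 10.00 and 9.82 on the shRNA B arrays. BRCA1 (0.11), RBBP8 and NBN (0.09 each) were also higher in the mean with shRNA B, and XRCC2 (-0.12), EXO1 and RPA3 (-0.07 each) lower. Without shRNA B replicate 2 the gap of NBN was -0.00, and without shRNA B replicate 1 that of EXO1 was 0.04 and that of RPA3 0.00.

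The controls themselves differed on a like scale. None of the 35 genes passed between the GFP shRNA and the empty vector (0.00689% of all genes did), and 8 of 35 had a lower mean with the GFP shRNA (35.5% of all genes) while 27 had a higher one, with a median of 0.041 against 0.016 for all genes. The median of the 35 genes between the control constructs was 0.020 without GFP shRNA replicate 1 and 0.071 without GFP shRNA replicate 2. RPA1 differed most, by 0.23 ± 0.0942 (standard error; adjusted p = 0.945), with 9.65 and 9.64 on the empty vector arrays and 9.90, 9.84 and 9.91 on the GFP shRNA arrays. It was the 1 gene of the 35 (2.86%) at an unadjusted p under 0.05, against 4.48% of all genes, and without GFP shRNA replicate 2 there were 4, against 6.16%. BRIP1 differed by 0.15 and TIMELESS by 0.13, and for both GFP shRNA replicate 1 was the highest of all arrays (8.84 and 9.26). The difference of TIMELESS was 0.03 without empty vector replicate 2, 0.05 without GFP shRNA replicate 1 and 0.24 without empty vector replicate 1. With the GFP shRNA arrays alone as the control, the knockdown median of the 35 genes was -0.065, none passed, and PALB2 and RNF8 joined BARD1, XRCC3 and RPA2 among the genes whose groups did not overlap, as did those of 6.80% of all genes.

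Exon usage was read from the splicing index, the log2 value of a probe set minus the value of its gene on the same array. No probe set of the 35 genes passed between knockdown and control, and 7 of 220910 probe sets (0.00317%) did. An unadjusted p under 0.05 was found for 139 of 967 probe sets (14.4%), against 11.8% of all probe sets. The index was higher in the knockdown for 84 of these and lower for 55, and 6.35% of all probe sets passed this threshold with a higher and 5.42% with a lower index. Non-overlapping groups were found for 20 of 967 (2.07%), against 1.45%. Between the shRNAs no probe set of the 35 genes or of all (0%) passed, and 39 of 967 (4.03%) had an unadjusted p under 0.05, against 5.52%. A difference in the index shows only that the probe sets of a gene did not change alike.

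The lowest adjusted p of all 967 probe sets, 0.107, belonged to 3781494 of RBBP8, the gene of the resection factor CtIP. Its splicing index was 0.30, 0.19, 0.08, 0.17 and 0.24 in the controls, 0.01, -0.03 and 0.06 with shRNA A and 0.01, -0.05 and -0.00 with shRNA B. Every knockdown array lay below every control, by -0.20 ± 0.0384 (standard error), and the probe set itself averaged 8.74 ± 0.0400 (SD, n = 5) in the control and 8.53 ± 0.0724 (SD, n = 6) in the knockdown. The gene value of RBBP8 differed by -0.02.

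In FANCI, which is ubiquitinated together with FANCD2, probe set 3607566 had a splicing index of -0.31, -0.06, -0.21, -0.31 and -0.28 in the controls, -0.52, -0.33 and -0.60 with shRNA A and -0.61, -0.57 and -0.74 with shRNA B. The groups did not overlap (-0.32 ± 0.0681, standard error; adjusted p = 0.12), and the probe set's own mean went from 9.15 to 8.77. Other bright FANCI probe sets with an unadjusted p under 0.05 were also lower relative to the gene, among them 3607549 (-0.35, control mean 10.53) and 3607588 (-0.41, control mean 10.42), though their groups overlapped. They were chosen after their values were seen.

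Lower indices with non-overlapping groups were also found for 2698857 of the checkpoint kinase gene ATR (-0.17, adjusted p = 0.128) and 3439853 of RAD52 (-0.24, adjusted p = 0.147). The RAD52 probe set averaged 8.59 in the control and 8.33 in the knockdown. Higher indices were found for 2905498 of RNF8 (0.18), 3765623 of BRIP1 (0.15), 2828608 of RAD50 (0.19) and 2403314 of RPA2 (0.19), with adjusted p-values from 0.13 to 0.161. In RNF8, BRIP1, RAD50 and RPA2 the gene value was lower in the knockdown, and the probe set's own mean went up by less than the index did. For RPA2 the probe set was dim, at 7.91 in the control and 8.00 in the knockdown, as was that of RNF8, at 8.02 and 8.08. The RNF8 probe set's own knockdown values, 8.07 to 8.10, lay within its control values, 7.92 to 8.12. Those of the BRIP1 probe set, 8.37 to 8.72, lay within its controls, 8.33 to 8.73. The own values of the ATR, RAD52, RAD50 and RPA2 probe sets overlapped between the groups as well, while those of the RBBP8 and FANCI probe sets did not.

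**Figure D4:**
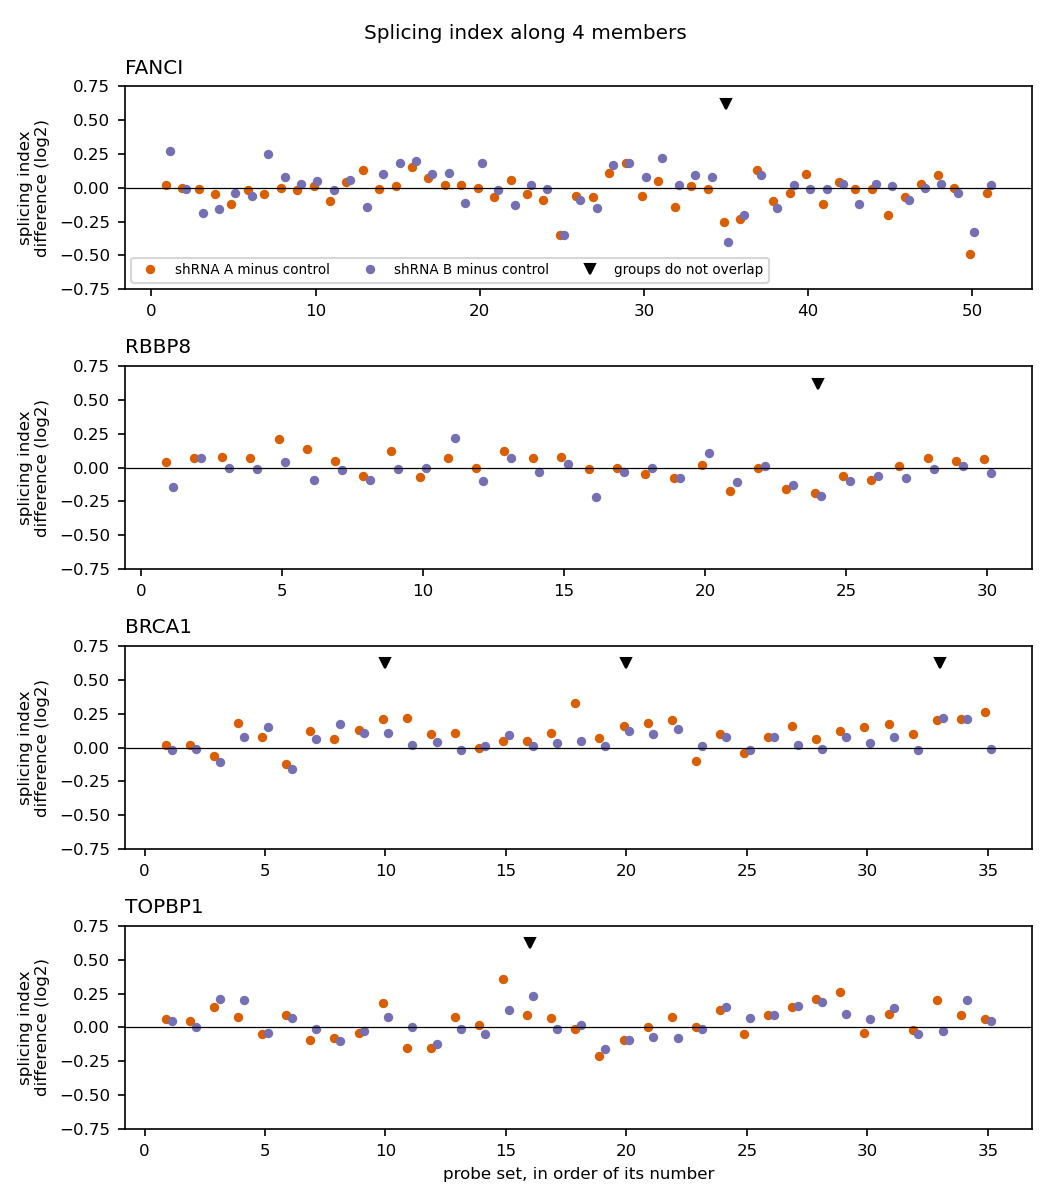
Difference of the splicing index (log2) from the 5 controls along FANCI, RBBP8, BRCA1 and TOPBP1, for shRNA A (orange) and shRNA B (violet), with probe sets in order of their number on the array. Triangles mark probe sets whose control and knockdown arrays do not overlap: 1 in FANCI, 1 in RBBP8, 3 in BRCA1 and 1 in TOPBP1.

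Some genes had indices that went mostly one way. All 7 BRCA1 probe sets at an unadjusted p under 0.05 had a higher index in the knockdown, while the BRCA1 gene value, which is subtracted from each of them, was lower by 0.08 in the mean. All 7 such probe sets of BLM had a lower index, from -0.15 to -0.09, with a gene value that differed by 0.01. TOPBP1 had 10 such probe sets, 8 higher and 2 lower, and FANCA had 10, 5 each way. ATRIP had none of its 4 probe sets, and BRCA2 1 of 40.

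The direction of the index went with brightness. Of the 304 probe sets of the 35 genes with a control mean under 8.2, 33 had a higher and 2 a lower index at an unadjusted p under 0.05 (10.9% and 0.658%, against 5.57% and 1.85% of all probe sets in that range). Of the 257 with a control mean of 9 and over, 17 were higher and 25 lower (6.61% and 9.73%, against 8.08% and 10.7%). The levels themselves moved along, since the median difference of the probe set values was -0.004 under 8.2 and -0.072 at 9 and over, and -0.004 and -0.063 for all probe sets. The part of brightness in the indices was not tested.

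**Figure D5:**
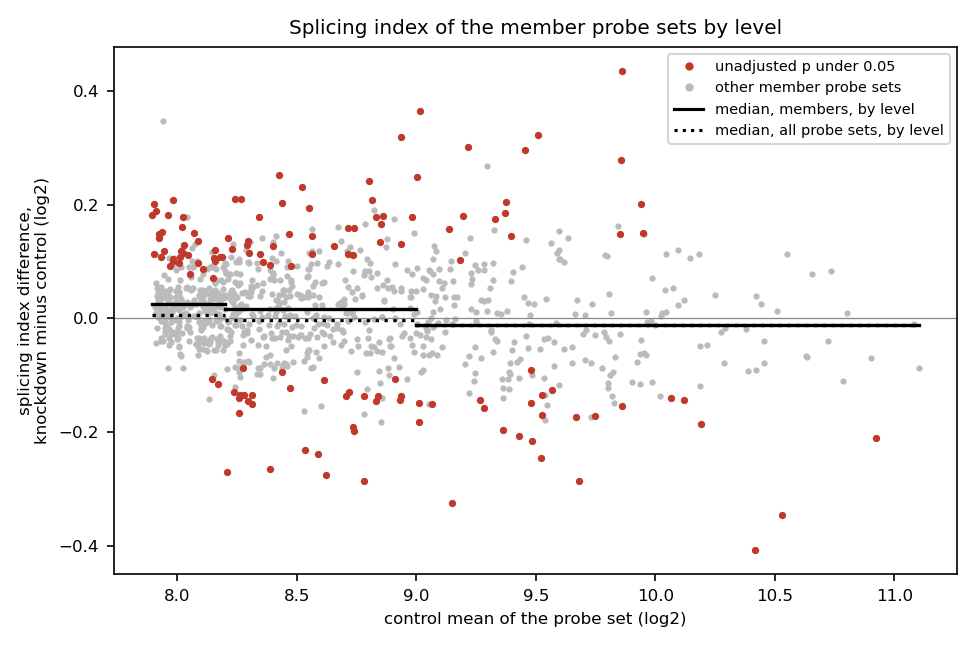
Difference of the splicing index between knockdown and control (log2) against the control mean of the probe set (log2) for the 967 probe sets of the 35 genes. Red points have an unadjusted p under 0.05, and the lines are medians within 3 ranges of level for these probe sets (solid) and for all probe sets (dotted): 0.026 against 0.007 under 8.2, and -0.012 against -0.011 at 9 and over.

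Other DNA repair genes, listed by pathway, were described the same way. In the knockdown 0 genes were called higher in any of the 7 lists (0.0344% of all genes were), and 1 gene was called lower (0.193% of all genes were). It was H2AX, the histone variant whose phosphorylation recruits MDC1, with -0.31 ± 0.0591 (standard error; adjusted p = 0.0487) and all knockdown arrays below all controls. It averaged 9.04 ± 0.0815 (SD, n = 5) in the control and 8.73 ± 0.106 (SD, n = 6) in the knockdown, and the call was lost under most alternatives. H2AX was in the list of other checkpoint and chromatin response genes. The 27 measured members of that list had a median of -0.030, and 20 had a lower mean, against 67.2% of all genes.

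Base excision repair had the lowest median, -0.079, with 18 of 19 measured genes lower in the mean, against 67.2% of all genes. It was led by XRCC1, the scaffold of single-strand break repair (-0.34, adjusted p = 0.0622, groups not overlapping), and the abasic site nuclease APEX1 (-0.24, adjusted p = 0.269). Other Fanconi genes had a median of -0.039 over 16 genes (ERCC1 -0.23, MAD2L2 -0.15), and nucleotide excision repair -0.033 over 15 (ERCC2 -0.19, XPC -0.17). Other recombination genes had a median of -0.031 over 23, with EME1, a subunit of a junction nuclease, at -0.13 and RMI2, a partner of RMI1, at -0.10. Mismatch repair stood at -0.044 over 5 genes (MLH3 -0.06, MSH6 -0.05) and end joining at -0.016 over 11 (POLL -0.14, POLM -0.13). The 35 genes, at -0.049, thus lay within the range of the other lists' medians, and all of these were compared with the same arrays. Besides H2AX and XRCC1, groups that did not overlap were found in these lists for EME1, SLX4, PAXIP1 and ERCC2. All were lower in the knockdown, as were 2.02% of all genes without overlap.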

How the data were processed

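RNA from 11 cell samples was measured on Affymetrix Human Exon arrays. The deposited table gives log2 values of 1399022 probe sets. How the authors made these log2 values (software, background correction, normalization, genome build) is not given in the sources used here. Array medians were nearly equal, at 7.902 to 7.905. Dim probe sets crowd around that level, so the medians do not show whether arrays had been scaled to each other. Between 13190 and 15431 probe sets per array had no estimate. With 11 arrays, precision is set by their number.

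Symbols came from the array's annotation and were updated through RefSeq synonyms (GRCh38.p14): of 19536, 16450 were current, 2876 were updated and 210 were kept. No probe set coordinates are given. A probe set was used if it had 1 symbol, estimates on all arrays and a mean at or above 7.91, the median of the table; a gene needed 4 and took their median. This left 220910 probe sets and 14520 genes.

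Groups were compared with limma 3.58.1 (lmFit, eBayes with a trend) in R 4.3.3, on all 11 arrays, with Benjamini-Hochberg adjustment over all genes or probe sets; the threshold was an adjusted p of 0.05. All p-values above are from limma unless named otherwise. The pooled fit had 2 levels, the fit of each shRNA 3 and that of the control constructs 4. The scripts were tested on simulated data. Alternatives were the dim filter, the mean of probe sets, the minimum of probe sets, quantile normalization, no trend, blocks, the control group and leaving out arrays.

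The 35 genes and the other lists were chosen with earlier results of these data known. Named were genes with non-overlapping groups, the 4 largest mean differences each way per comparison (3 for the controls), and the probe set with the smallest p per gene among those with non-overlapping groups, up to 8; the others are given by role.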

Additional observations from a re-analysis of the deposited data

Results flagged for a closer look

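Within the 5 controls or the 6 knockdown arrays, 54 sets of values of named genes and probe sets were searched for an array that stood apart from the rest of its group, which chance gives in about 1 group in 20. Values that stood apart were found in 4 of the 54. In FANCA, shRNA B replicate 1 was at 8.65 and the nearest other knockdown array at 8.80. In RBBP8, GFP shRNA replicate 1 was at 8.70 and the nearest other control at 8.54. In NBN, shRNA B replicate 2 was at 8.51 and the nearest other knockdown array at 8.29. The splicing index of probe set 2828608 of RAD50 was -0.63 on GFP shRNA replicate 2 and -0.44 on the nearest other control.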

How the results depend on the processing

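None of the 35 genes passed in a comparison under any alternative run for it, and none of their probe sets did between knockdown and control or between the shRNAs, the comparisons of probe sets that were rerun. The smallest adjusted p of the 35 genes between knockdown and control, 0.148, came close to the threshold without a trend (0.0548). It was 0.0963 with gene values as means and 0.62 on the arrays without the suffix. Differences of the genes without overlap kept their sign throughout: BARD1 between -0.15 and -0.08, XRCC3 between -0.08 and -0.03 and RPA2 between -0.12 and -0.06. The count of non-overlapping genes was 3, and became 1 (BARD1) with no filter on dim probe sets and with quantile normalization, 0 with a higher floor (the table median plus 0.5) and with gene values as means, 5 with the GFP shRNA arrays alone as the control (6.80% of all genes), 6 on the arrays without the suffix (14.1% of all genes), and 3 to 5 with each array left out (2.61% to 4.93% of all genes). The call of HTATSF1 was lost with no dim filter (-0.25), at least 1 probe set per gene (-0.30), the replicate block (-0.30), the suffix as a block or left out (-0.25 each), without both the brightest and the dimmest array (-0.27), and without any 1 array but empty vector replicate 2 (range -0.34 to -0.26). The count called in the other repair lists was 1, and became 0 with no dim filter, at least 1 probe set, quantile normalization, either block, the GFP shRNA control, without both end arrays and without the suffix arrays, 2 with gene values as means, 3 with the higher floor, and 0 to 1 with each array left out. Over all genes, 252 passed with the higher floor, 140 with gene values as means, 86 without a trend, 19 with no dim filter, 10 with the replicate block, 2 with the GFP shRNA control, 1 with at least 1 probe set per gene and 0 with the suffix as a block, against 33; the cause was not tested. With the higher floor RAD51D, RMI1, ATRIP and FANCM were not measured.

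None of the differences of the 35 genes had passed, and some of them changed sign under an alternative. Knockdown against control gave RPA3 0.03 with no dim filter, XRCC2 -0.10 and RAD51C -0.08 with the higher floor, RAD51C -0.04 and BRIP1 0.00 with the mean of probe sets, BRCA2 -0.01 with the GFP shRNA control, RBBP8 0.04, RPA1 0.01, EXO1 0.02 and BRIP1 0.02 without both end arrays, and up to 0.02 for RBBP8 and 0.01 for RPA1 without single arrays (ranges -0.04 to 0.02 and -0.06 to 0.01). shRNA A gave RAD51C -0.04 and XRCC2 -0.04 with the higher floor, RAD51C -0.01 with the mean and BRCA2 -0.00 with the GFP shRNA control. shRNA B gave RPA3 0.03 and RAD51C -0.01 with no dim filter, RAD51C -0.12 with the higher floor, RAD51C -0.07 and RBBP8 -0.00 with the mean, RBBP8 -0.01 and RPA1 -0.03 with the GFP shRNA control, and without single arrays ranges of -0.04 to 0.10 for RAD51C, -0.00 to 0.09 for RBBP8 and -0.00 to 0.12 for RPA1. shRNA B against shRNA A gave RPA3 0.00 with no dim filter, and without single arrays ranges of -0.15 to 0.00 for RPA3, -0.15 to 0.04 for EXO1 and -0.00 to 0.15 for NBN. Causes were not tested.

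Same-numbered arrays correlated between -0.15 and 0.27 after removal of group means (15 pairs, median 0.04). Different-numbered arrays correlated between -0.27 and 0.22 (30 pairs, median -0.02). The ranges overlapped widely, and the samples were not treated as pairs. With the replicate block the median difference of the 35 genes was -0.057. The suffix could be a block only through shRNA A, and with it 0 of the 35 genes had an unadjusted p under 0.05, against 8.81% of all genes.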
